A study of Rattus norvegicus with 23 samples.

Results

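Abcc3 and Abcc4 encode MRP3 and MRP4, the pumps that move bile acids and conjugated drugs out of the hepatocyte across its basolateral membrane, towards the blood. Their transcripts were described in livers of male Sprague Dawley rats given 1 of 4 hepatotoxicants or a vehicle. The members were the probe sets (groups of array features that report 1 transcript) annotated to either gene alone. Each gene had 1 such probe set, 1369698_at for Abcc3 and 1379402_at for Abcc4, so that the pair made up 2 of the 31042 probe sets tested and 2 of the 14217 genes they named. There were therefore no further probe sets of either gene to set beside these.

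RNA from the left lateral lobe of 23 livers was measured on Affymetrix rat arrays, and the deposited values are on a log2 scale, so that 1 unit is a doubling. Alpha-naphthyl isothiocyanate (ANIT, 100 mg/kg, n = 3) was set against corn oil at 5 ml/kg (n = 3), and methylenedianiline (MDA, 100 mg/kg, n = 3) against 35% ethanol at 2 ml/kg (n = 3), each in an in-life study of its own. Acetaminophen (APAP, 1000 mg/kg, n = 3) with corn oil at 2 ml/kg (n = 3) and diclofenac (DCLF, 10 mg/kg, n = 3) with water at 10 ml/kg (n = 2) came from the third study. All rats, usually 6 to 8 weeks old, were gavaged for 5 days, and livers were taken 24 h after the last dose. ANIT and MDA are standard bile duct toxicants. Each compound was tested at 1 dose and 1 time, in 1 sex and in 1 vehicle. The small number of arrays sets the precision of the values.

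Bile acids enter hepatocytes from sinusoidal blood through carriers such as Slc10a1 (NTCP) and leave mainly into the canaliculus through Abcb11 (BSEP) and Abcc2 (MRP2). Efflux back into blood is normally a minor route. Abcc3 carries glucuronides and bile acids, and Abcc4 carries sulfated bile acids and cyclic nucleotides, and it moves glutathione along with bile acids. Both genes are known to be induced in cholestasis and by activators of the oxidant sensor NRF2 (Nfe2l2), and ligands of AhR, CAR, PXR and PPAR alpha have been tied to them as well.

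The start of Abcc4 is shown because the binding letters of these regulators can be looked for in it. The RefSeq promoter window of Abcc4 in GRCr8 covers chr15:102181315-102181614 on the minus strand and holds 300 bases, most of them before the annotated start. That start falls on the letters atg, so bases shortly before it may themselves be transcribed, which was not tested. Capitals mark the letters CACGC, which read GCGTG, the core of the xenobiotic response element of AhR, on the opposite strand.
Abcc4: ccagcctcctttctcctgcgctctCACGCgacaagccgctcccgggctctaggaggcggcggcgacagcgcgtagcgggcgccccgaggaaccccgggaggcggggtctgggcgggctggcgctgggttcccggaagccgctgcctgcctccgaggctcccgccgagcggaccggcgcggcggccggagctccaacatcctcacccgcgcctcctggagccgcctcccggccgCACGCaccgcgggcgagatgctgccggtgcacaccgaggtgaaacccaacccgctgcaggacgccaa

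The window held 2 matches to GCGTG, at positions -226 and -17 from the annotated start, and 29.7% of the 33469 promoter windows of the rat table held at least 1. Both strands were searched, and no match overlapped another. The antioxidant response element core TGACNNNGC (in 12.1% of all windows), the nuclear receptor half-site AGGTCA (16.2%) and the longer letters CAAGGTCA (1.52%) had 0 matches in it. The window was rich in G and C, at 75.3% against a median of 51.7% over all windows, and 97.0% of them had a lower share. A match is a description of letters and no evidence that a factor binds there, and the absence of letters in 300 bases says nothing about the factor.

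Before the pumps were compared, 3 arrays were found to stand apart: replicate 2 of corn oil at 5 ml/kg and replicates 1 and 2 of ANIT. None of their values exceeded 15 (their highest values were 14.57 to 14.97), whereas the other 20 arrays each held 29 to 38 probe sets above 15. The highest value of either pump on any array was 12.72, below that range. For ANIT, the changes of the pumps and the medians of several lists are also given without these arrays. That fit held 1 ANIT array and 2 corn oil arrays.

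Abcc3 was low in every vehicle animal and high in every animal given ANIT, MDA or APAP. On the log2 scale the 3 ANIT livers stood at 12.72, 11.69 and 11.96, and their 3 corn oil controls at 9.28, 8.88 and 10.11. The MDA livers stood at 11.70, 11.72 and 11.92, against 9.31, 8.98 and 8.98 in 35% ethanol. The APAP livers stood at 11.69, 11.66 and 11.60, against 8.60, 8.91 and 8.82 in corn oil at 2 ml/kg. In none of these 3 comparisons did the groups overlap, and the highest of all 11 vehicle animals, at 10.11, lay below the lowest animal given any of the 3 compounds, at 11.60. DCLF livers, at 8.63, 8.77 and 9.18, lay among the vehicles, and their water controls were at 8.77 and 8.72.

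Abcc4 spanned a narrower range, and its animals were parted less clearly. The APAP livers stood at 9.995, 9.86 and 9.79, all above their corn oil controls at 8.46, 8.23 and 8.08. The MDA livers stood at 9.10, 9.26 and 9.47, against 8.22, 8.49 and 8.73 in 35% ethanol. Neither group overlapped its vehicle. The ANIT livers stood at 9.32, 8.85 and 8.77, and their controls at 8.72, 8.05 and 8.75, so that the lowest ANIT animal lay just above the highest control. DCLF livers, at 8.16, 8.21 and 8.28, lay below the median of the 11 vehicle animals, 8.46, and the 2 water controls were at 8.27 and 8.81.

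**Figure D1:**
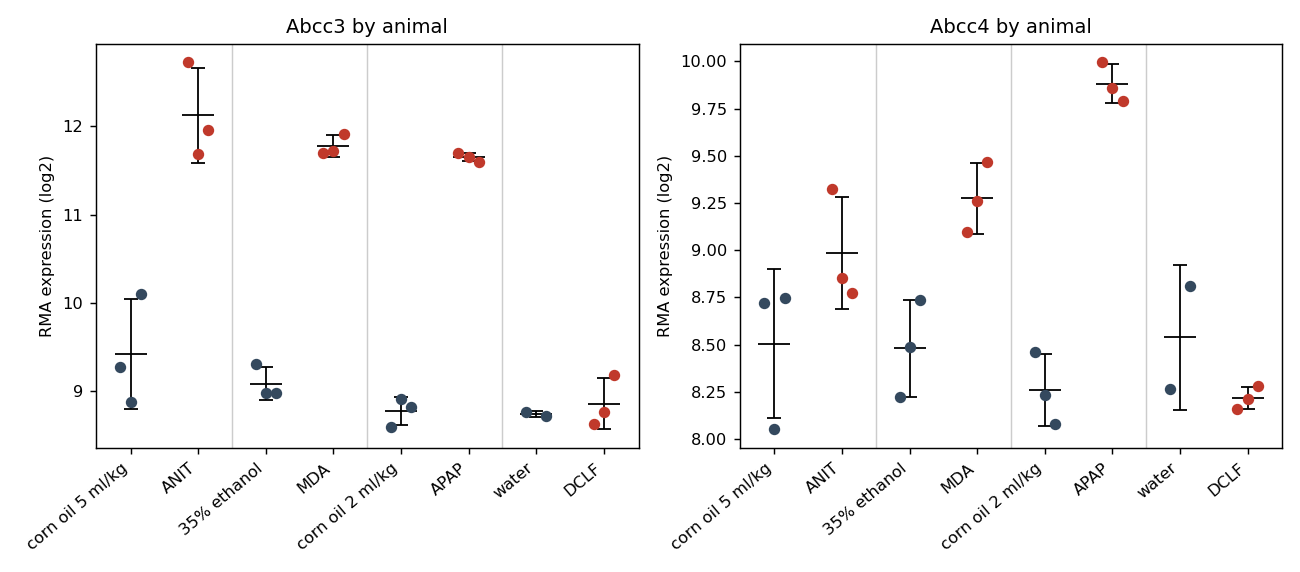
RMA expression (log2, vertical axis) of Abcc3 (left) and Abcc4 (right) in each of the 23 livers, red for compound and dark for vehicle, with each group's mean (long bar) and SD (whiskers); each compound stands to the right of its own vehicle. The ANIT, MDA and APAP livers lie at 11.60 or higher for Abcc3, above all vehicle animals, whereas for Abcc4 the APAP livers stand highest and the ANIT livers come close to their controls.

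Both pumps rose in APAP livers. Abcc3 rose by 2.87 ± 0.0932 (log2 change ± SE, 95% interval 2.66 to 3.09, limma adjusted p = 2.41e-05), or 7.31-fold. Abcc4 rose by 1.62 ± 0.109 (1.37 to 1.88, adjusted p = 0.00156), or 3.08-fold. Here and below a gene is called when its limma p, adjusted over all probe sets, is under 0.05 and its fold change is over 1.5. Only 0.209% of all probe sets were called in APAP livers, 65 in number, and both pumps were among them. Of the 14217 genes, 1 had a larger log2 increase than Abcc3, namely the glutathione transferase gene Gsta3, and 11 had a larger one than Abcc4. The methods' t-test, a two-sided test whose threshold in the study was an unadjusted p under 0.01 with a fold change over 1.5, called both pumps and gave unadjusted p-values of 7.39e-06 for Abcc3 and 0.000202 for Abcc4, but neither passed after adjustment (adjusted p = 0.0765 and 0.261), and with it 1 probe set passed in all.

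In ANIT livers Abcc3 rose and Abcc4 was not called. Abcc3 rose by 2.70 ± 0.348 (1.90 to 3.51, adjusted p = 0.00364), or 6.51-fold, and 14 genes had a larger increase. The change of Abcc4 was 0.48 ± 0.216 (-0.02 to 0.98, adjusted p = 0.239), which leaves room for anything from no change to nearly a doubling. Of all probe sets, 5.38% were called. Without the 3 arrays that stand apart, which leaves 1 ANIT and 2 corn oil arrays and assumes that the lone liver varies like the others, the change of Abcc3 was 2.27 ± 0.328 (adjusted p = 0.0229) and that of Abcc4 0.04 (adjusted p = 0.874). The methods' t-test called Abcc3 at its unadjusted threshold but not after adjustment (adjusted p = 0.0948).

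In MDA livers both pumps rose. Abcc3 rose by 2.69 ± 0.118 (2.42 to 2.96, adjusted p = 3.01e-05), or 6.44-fold, with 9 genes above it. Abcc4 rose by 0.79 ± 0.148 (0.45 to 1.13, adjusted p = 0.011), or 1.73-fold, with 448 genes above it. Of all probe sets, 7.02% were called, so that the Abcc4 change was one among many of its size in these livers. The methods' t-test called Abcc3 at its unadjusted threshold and after adjustment (adjusted p = 0.023), and Abcc4 at neither (adjusted p = 0.12).

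Neither pump was called in DCLF livers, where 0% of probe sets were called by limma (0, against 3885 at an unadjusted p under 0.05, and 0 by the methods' t-test after adjustment). The change of Abcc3 was 0.12 ± 0.158 (-0.26 to 0.49, adjusted p = 0.788) and that of Abcc4 was -0.32 ± 0.153 (-0.68 to 0.04, adjusted p = 0.437). The interval of Abcc3 has its upper end below the change of 0.58 that a 1.5-fold increase makes. That of Abcc4 reaches past a 1.5-fold decrease. One water animal of 2 carried much of the Abcc4 value: without it the change was -0.05, and without the other -0.59.

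**Figure D2:**
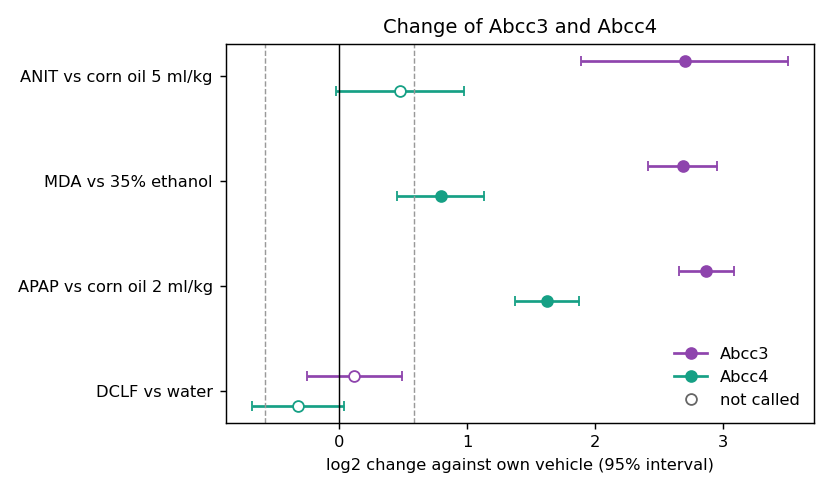
Log2 change of Abcc3 (purple) and Abcc4 (green) in each compound group against its own vehicle, with the 95% interval; filled points were called, open points were not, and dashed lines mark a 1.5-fold change. Abcc3 stands between 2.69 and 2.87 for ANIT, MDA and APAP, whereas Abcc4 runs from 0.48 to 1.62 over the same 3 compounds.

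Whether the compounds differed in their effect on a pump was tested as a difference between the log2 changes, with p adjusted over all probe sets. For Abcc3 no difference among the 3 compounds that raised it was called. The difference was 0.02 ± 0.405 for ANIT minus MDA (-0.86 to 0.90, adjusted p = 0.995), -0.17 ± 0.401 for ANIT minus APAP (-1.04 to 0.70, adjusted p = 0.871) and -0.18 ± 0.155 for MDA minus APAP (-0.52 to 0.15, adjusted p = 0.606). The intervals that involve ANIT are wide enough to hold a difference of over 1.5-fold in either direction, and the call says nothing about equality.

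For Abcc4 the change was larger in APAP livers than in either of the others. The difference was -1.15 ± 0.265 for ANIT minus APAP (-1.72 to -0.57, adjusted p = 0.0273) and -0.83 ± 0.197 for MDA minus APAP (-1.26 to -0.40, adjusted p = 0.0273). Of all probe sets, 4.07% and 5.09% were called in these tests. ANIT minus MDA, where 1.16% were called, gave -0.32 ± 0.286 for Abcc4 (-0.94 to 0.30, adjusted p = 0.794). Both calls were close to the threshold. The first was lost when any 1 of 8 of the 12 arrays was left out (replicates 1 and 3 of corn oil at 5 ml/kg, 2 and 3 of ANIT, 2 and 3 of corn oil at 2 ml/kg, 1 and 2 of APAP), with differences of -1.37 to -1.03 and adjusted p up to 0.0717. The second was likewise lost for 8 of 12 (replicates 2 and 3 of corn oil at 2 ml/kg, 1 and 2 of APAP, 2 and 3 of 35% ethanol, 1 and 2 of MDA), with differences of -0.96 to -0.70 and adjusted p up to 0.0682. Since ANIT, MDA and APAP came from different studies with different vehicles, a difference between compounds and one between studies cannot be told apart.

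APAP and DCLF came from 1 study, and there both pumps differed. APAP minus DCLF was 2.75 ± 0.192 for Abcc3 (2.33 to 3.17, adjusted p = 0.000436) and 1.95 ± 0.20 for Abcc4 (1.51 to 2.38, adjusted p = 0.00333). In this test 0.0709% of probe sets were called, 22 in number, and all 22 were higher for APAP. Leaving out any 1 of the 11 arrays kept both calls. The vehicles of these compounds were also set against each other. Corn oil at 2 ml/kg minus water was 0.04 ± 0.106 for Abcc3 (-0.22 to 0.29, adjusted p = 0.953) and -0.28 ± 0.180 for Abcc4 (-0.71 to 0.15, adjusted p = 0.766), with 0% of probe sets called (0, against 2107 at an unadjusted p under 0.05, and 0 by the methods' t-test after adjustment).

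The point value of the change was larger for Abcc3 than for Abcc4 under each compound. The log2 change of Abcc3 minus that of Abcc4 was 2.23 for ANIT, 1.89 for MDA and 1.25 for APAP, and 0.44 for DCLF. In a two-sided exact permutation test over animals p was 0.1 for each of the first 3, which is the smallest that this test allows with 3 animals against 3, and 0.3 for DCLF (3 against 2). These are differences between changes, whose size may also depend on the probes, and the part of the probes in them was not tested. Levels of different probe sets depend on the probes and were not set against each other.

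Ordered by group mean, Abcc3 ran from ANIT (12.13 ± 0.535, SD) over MDA (11.78 ± 0.121), APAP (11.65 ± 0.0476), corn oil at 5 ml/kg (9.42 ± 0.623), 35% ethanol (9.09 ± 0.191), DCLF (8.86 ± 0.289) and corn oil at 2 ml/kg (8.78 ± 0.159) to water (8.74 ± 0.0363). The one wide step lay between APAP and corn oil at 5 ml/kg, where the means differed by 2.23. Animals of all other neighbours overlapped except MDA and APAP, whose nearest animals were 11.70 and 11.69. Abcc4 had another order, from APAP (9.88 ± 0.103) over MDA (9.27 ± 0.187), ANIT (8.98 ± 0.297), water (8.54 ± 0.384), corn oil at 5 ml/kg (8.51 ± 0.394), 35% ethanol (8.48 ± 0.256) and corn oil at 2 ml/kg (8.26 ± 0.190) to DCLF (8.22 ± 0.0597). Only APAP and MDA, first and second in that order, were neighbours without overlap. Over the 11 vehicle animals Abcc3 ranged from 8.60 to 10.11 (median 8.91) and Abcc4 from 8.05 to 8.81 (median 8.46).

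The lists below are read against the share of all 14217 genes called: 3.84% were higher and 3.38% lower with ANIT, 4.9% and 4.23% with MDA, 0.239% and 0.0844% with APAP, and 0% in either direction with DCLF. Of the 10 measured members of the ABCC family, to which the pair belongs, 1 was higher in ANIT livers (Abcc3), 3 in MDA livers (Abcc3, Abcc4 and Abcc1), 2 in APAP livers (Abcc3 and Abcc4) and 0 in DCLF livers, and 1 was lower (in MDA livers). Apart from the pair, then, 1 gene was called in each direction, both with MDA, where the change of Abcc4 was 0.79. The one that rose was Abcc1, which encodes the glutathione conjugate pump MRP1 (0.61 ± 0.153), and the other, which fell, was Abcc8, a subunit of a potassium channel (-0.85 ± 0.123). The canalicular Abcc2 had log2 changes of 0.02 for ANIT, -0.04 for MDA, 0.14 for APAP and 0.08 for DCLF, none of them called. Medians over the family were 0.02, 0.10, -0.0037 and 0.03 in that order, beside medians over all genes of -0.02, 0.00, 0.02 and -0.03. Slc51a, which encodes 1 chain of the other basolateral bile acid exporter (OST), had changes of 0.11, 0.07, -0.02 and 0.14, none called, and its partner Slc51b was not analysed here.

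Of 9 measured uptake carriers, 4 fell in ANIT livers and 4 in MDA livers, beside 3.38% and 4.23% of all genes, and 0 were called in APAP or DCLF livers. Slc10a1, the main bile acid uptake carrier, fell by 1.34 ± 0.313 with ANIT and by 0.85 ± 0.117 with MDA on the log2 scale, and its APAP change was 0.08. Slc22a8, an organic anion carrier, fell by 1.40 ± 0.267 and 1.5 ± 0.101, with an APAP change of 0.10. The difference between MDA and APAP was called for Slc10a1 (-0.93 ± 0.194, adjusted p = 0.015) and Slc22a8 (-1.60 ± 0.284, adjusted p = 0.00647). For ANIT minus APAP neither was called (-1.42 ± 0.381, adjusted p = 0.052, and -1.5 ± 0.40, adjusted p = 0.051). The anion carriers Slco1a4 (-1.07 ± 0.234) and Slc22a7 (-0.80 ± 0.0815) also fell with ANIT, and Slco1a1 (-0.75 ± 0.102) and the prostaglandin carrier Slco2a1 (-0.63 ± 0.148) with MDA.

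Of 10 measured canalicular transporters, 3 fell with ANIT, beside 3.38% of all genes: Abcg5 (-2.45 ± 0.193) and Abcg8 (-1.09 ± 0.178), which form the sterol exporter, and the drug pump Abcb1a (-1.06 ± 0.218). Abcg5 alone fell with MDA (-0.98 ± 0.158), and 0 were called with APAP or DCLF. Abcb11, the bile salt export pump, had changes of -0.46, -0.13, -0.05 and -0.04 for ANIT, MDA, APAP and DCLF, none called. Without the 3 arrays that stand apart, the median ANIT change was -0.57 over uptake carriers and -0.16 over canalicular transporters. With all arrays these medians were -0.55 and -0.13.

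**Figure D3:**
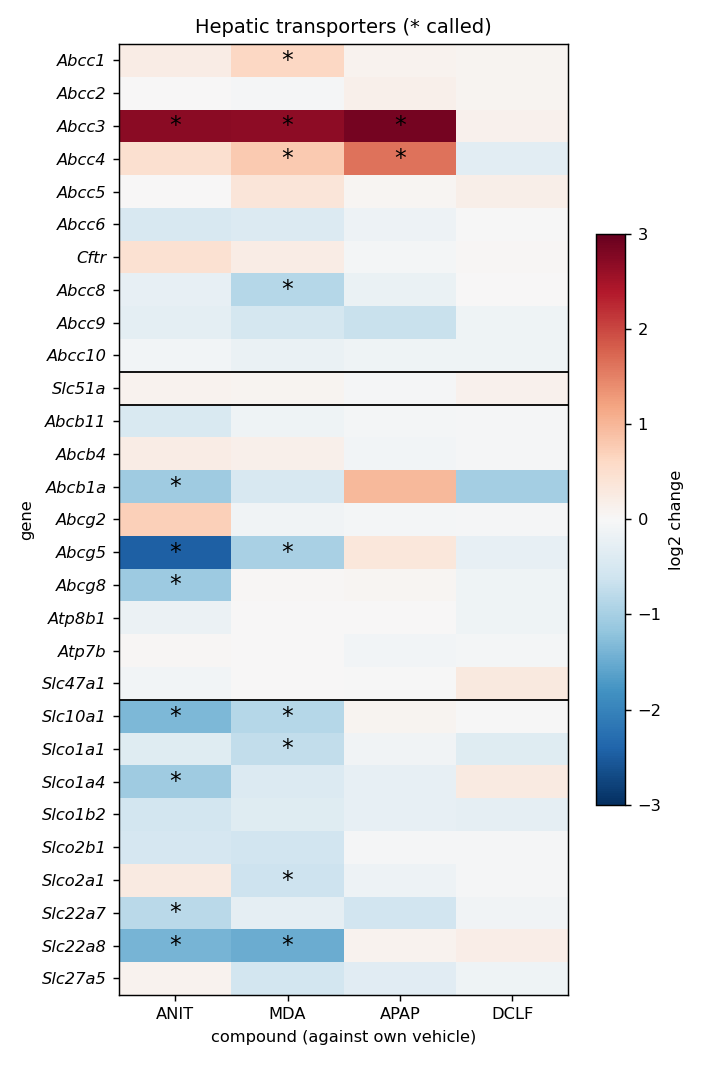
Log2 change of each measured ABCC family member, of Slc51a, and of the canalicular and uptake transporters (rows, in blocks divided by lines) in the 4 compound groups against their own vehicles (columns); the colour scale ends at 3 and -3 and an asterisk marks a call. Abcc3 and Abcc4 are the 2 genes called with APAP, and the falls of uptake carriers lie in the ANIT and MDA columns.

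Enzymes that make the substrates of these pumps were followed through lists for bile acid synthesis, glucuronidation and sulfation. In APAP livers, where 0.239% of all genes were higher, 2 of 7 measured glucuronidation genes rose, the transferase Ugt2b1 (1.37 ± 0.114) and Ugdh (1.12 ± 0.11), which makes the glucuronic acid donor, and 0 of 12 sulfation genes and 0 of 8 bile acid synthesis genes were called. In ANIT livers Ugt2b1 rose (1.55 ± 0.179) and Ugp2, an earlier step of donor synthesis, fell (-1.19 ± 0.15). There 3 of 12 sulfation genes fell, beside 3.38% of all genes. In bile acid synthesis 1 of 8 genes rose and 2 fell with ANIT, beside 3.84% and 3.38% of all genes, and 2 fell with MDA, beside 4.23%. With MDA Ugp2 fell (-0.87 ± 0.164), and 1 sulfation gene rose and 3 fell, beside 4.9% and 4.23% of all genes. Without the 3 arrays that stand apart, the median ANIT change was -0.48 over bile acid synthesis and -0.15 over sulfation genes. With all arrays these medians were -0.27 and -0.10. In DCLF livers 0 genes of these lists were called.

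The transcripts of the regulators themselves were mostly not called. Of 15 measured, 1 rose with ANIT, the receptor gene Ahr (0.61 ± 0.101), beside 3.84% of all genes. The median ANIT change over the regulators was -0.16, and -0.14 once the arrays that stand apart were left out. With MDA Nr0b2 (SHP) rose (1.13 ± 0.207), and the hepatocyte factor gene Hnf4a (-0.65 ± 0.114) and the bile acid receptor gene Nr1h4 (-0.59 ± 0.115) fell, beside 4.9% of all genes higher and 4.23% lower. None was called with APAP or DCLF. Nfe2l2 had changes of 0.40, -0.01, -0.10 and -0.07 for ANIT, MDA, APAP and DCLF, none called, and the activity of NRF2 protein was not measured.

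Target genes of NRF2 were the regulator targets most often called beside the pumps in APAP livers. Of 21 measured, 9 rose and 0 fell with APAP, where 0.239% of all genes were higher, and the median log2 change was 0.82 beside 0.02 over all genes. They included Gsta3 (4.35 ± 0.173), the aldehyde reductase gene Akr7a3 (2.58 ± 0.0725), Gstp1 (1.86 ± 0.248) and the quinone reductase gene Nqo1 (1.60 ± 0.0945). With MDA 9 rose and 0 fell (median 0.48), beside 4.9% of all genes higher, among them Gpx2 (2.70 ± 0.365), Gsta3 (2.43 ± 0.226), Ephx1 (1.84 ± 0.121) and Akr1b8 (1.33 ± 0.136). With ANIT 9 rose and Gclc, a subunit of the enzyme that starts glutathione synthesis, fell (median 0.27), beside 3.84% and 3.38% of all genes, and the 4 largest changes were those of Gpx2 (3.27 ± 0.351), Gsta3 (2.38 ± 0.369), Pgd (1.09 ± 0.105) and Ephx1 (1.07 ± 0.145). Without the 3 arrays that stand apart the ANIT median was 0.22. With DCLF 0 were called (median -0.05). In ANIT minus APAP 8 of 21 NRF2 targets were lower and 2 higher, beside 2.4% and 3.18% of all genes. In MDA minus APAP 6 were lower and 0 higher, beside 3.1% and 3.9%, and 0 were called in ANIT minus MDA.

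Other regulator targets showed other patterns. Of 7 AhR targets 3 rose with ANIT, 2 with MDA and 1 with APAP (Nqo1, which is also on the NRF2 list), beside 3.84%, 4.9% and 0.239% of all genes. Cyp1a1, the classical AhR target, rose by 3.87 ± 0.129 with ANIT and 3.54 ± 0.295 with MDA. Of 13 CAR and PXR targets 6 fell with ANIT, beside 3.38% of all genes, and 1 rose, and 2 rose with MDA and 1 with APAP (Aldh1a1, 1.18 ± 0.164). Of 15 PPAR alpha targets 10 fell with ANIT and 10 with MDA, beside 3.38% and 4.23% of all genes, and 0 were called with APAP. Without the 3 arrays that stand apart, the median ANIT change was 0.25 over AhR, -0.48 over CAR and PXR and -1.04 over PPAR alpha targets. With all arrays these medians were 0.425, -0.53 and -0.80. Of 6 scaffold and membrane linker proteins, which hold transporters in the membrane, Pdzk1 fell with ANIT (-0.62 ± 0.101) and MDA (-0.87), and Msn (1.34 ± 0.168) and Ezr (1.20 ± 0.0862) rose with MDA. With DCLF 0 genes of any of these lists were called.

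The genes whose pattern was most like that of each pump were found by the root mean square difference between their 4 log2 changes and those of the pump, over 14216 genes. For Abcc4 the nearest were Pir (0.191), Nqo1 (0.227), Slc17a3 (0.236), Gstt3 (0.244), Cryl1 (0.316) and Psat1 (0.355), against a median of 0.95 over all genes. Pir, an iron-binding nuclear protein gene, had changes of 0.46, 0.89, 1.94 and -0.52 for ANIT, MDA, APAP and DCLF, beside 0.48, 0.79, 1.62 and -0.32 for Abcc4. Nqo1 had changes of 0.82, 1.02, 1.60 and -0.14. All 6 genes had their largest change with APAP, as Abcc4 did, which follows from how they were chosen.

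Abcc3 had no neighbour as close. The nearest were Gsta3 (0.814), Phgdh (0.953), Fam111a (1.03), Ephx1 (1.04), Asns (1.04) and Gpx2 (1.09), against a median of 2.38. Gsta3 had changes of 2.38, 2.43, 4.35 and -0.42, beside 2.70, 2.69, 2.87 and 0.12 for Abcc3. Gpx2 was close to Abcc3 for MDA (2.70), above it for ANIT (3.27) and well below it for APAP (0.77). The pumps themselves were 1.60 apart, and 14098 genes were nearer to Abcc4 than Abcc3 was. Differences of this kind grow with the size of the changes, so a gene with large changes has fewer near neighbours.

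**Figure D4:**
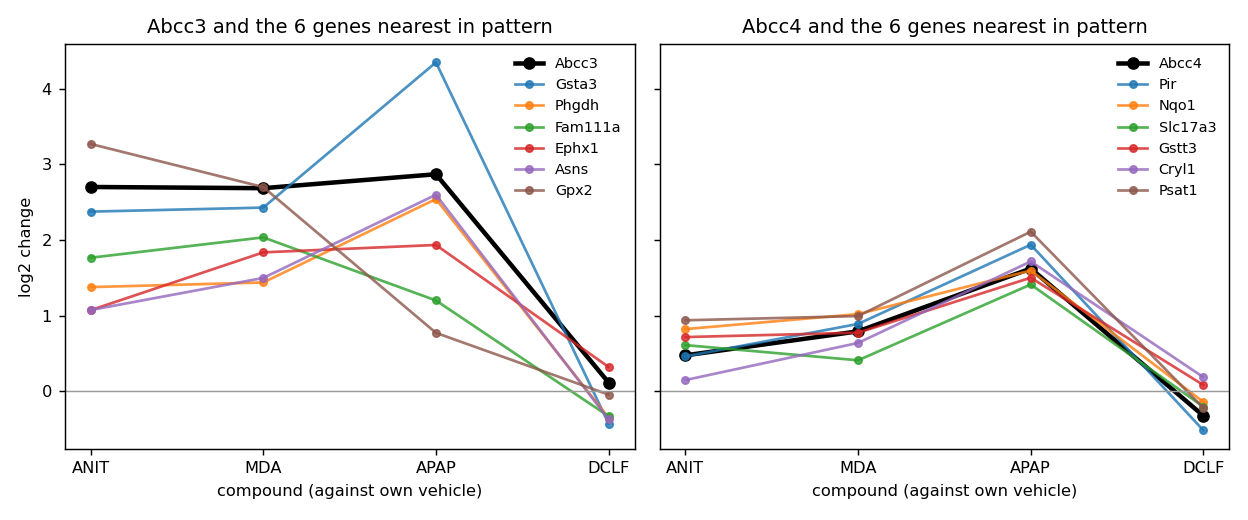
Log2 change against own vehicle (vertical axis) in the 4 compound groups for Abcc3 (left, black) and Abcc4 (right, black) with the 6 genes nearest to each in pattern (coloured lines). The lines around Abcc4 run close together with a peak at APAP, whereas Abcc3 is level from ANIT to APAP and its neighbours scatter around it. The genes were chosen by these same changes, so a shape shared with the pump follows from the choice.

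The levels of cell type markers are given beside those of the pumps. Counts of called markers are read against the shares of all genes called. These were 3.84% higher and 3.38% lower with ANIT, 4.9% and 4.23% with MDA, and 0.239% and 0.0844% with APAP. In bulk liver, fewer cells of a type and less RNA per cell cannot be told apart. Of 11 measured cholangiocyte markers 2 rose with ANIT (Epcam, 2.16 ± 0.156, and Sctr, 0.66 ± 0.16), 3 with MDA (Epcam, 1.10 ± 0.14, Cd24, 0.88 ± 0.151, and Sctr) and 0 with APAP or DCLF. Their summed level (log2 of the sum of linear values) was 12.81 to 13.21 in ANIT livers and 12.13 to 12.14 in their controls, and 12.91 to 13.18 against 12.39 to 12.58 for MDA. In APAP livers it was 12.28 to 12.34, within the 12.21 to 12.38 of corn oil. Krt19, a keratin of bile ducts, had changes of 0.86 (adjusted p = 0.161), 0.51 (adjusted p = 0.0541) and -0.15 with ANIT, MDA and APAP, none called.

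Of 9 monocyte and macrophage markers 3 rose with ANIT, 8 with MDA and 0 with APAP, beside 3.84%, 4.9% and 0.239% of all genes. Their summed level was 14.60 to 14.96 against 14.29 to 14.53 for ANIT, 15.06 to 15.38 against 13.98 to 14.22 for MDA, and 13.66 to 14.56 against 13.61 to 14.27 for APAP. Of 6 lymphocyte markers 3 rose with MDA (Cd3g, Lck and Gzmb; summed level 11.74 to 12.12 against 11.43 to 11.54) and 0 were called with the other compounds. Of 8 stellate cell and fibroblast markers Col1a1 and Acta2 rose with ANIT (1.14 and 0.93) and MDA (1.55 and 1.38), Lrat fell with both, and Reln fell with MDA. Their summed level was 13.92 to 14.20 against 13.88 to 14.08 for ANIT and 13.99 to 14.02 against 13.40 to 13.83 for MDA. In APAP livers it was lower than in their controls, at 13.18 to 13.30 against 13.39 to 13.66. Of 7 endothelial markers Stab1 and Kdr fell with ANIT (-0.75 and -0.73), with a summed level of 13.99 to 14.07 against 14.21 to 14.26, and 0 were called with the other compounds. Of 6 platelet and 6 neutrophil markers 0 were called with any compound. The summed neutrophil level was nonetheless 10.80 to 10.93 against 10.65 to 10.73 for ANIT, and 10.81 to 10.86 against 10.57 to 10.75 for MDA. For APAP and DCLF it overlapped the vehicle. The summed platelet level was 11.30 to 11.63 against 11.70 to 11.82 for ANIT. Of 4 erythroid markers 2 fell with ANIT, 2 with MDA and 1 with APAP (Hbb, -2.66 ± 0.31). Their summed level was 12.77 to 13.06 against 13.94 to 14.34 for ANIT and 13.09 to 13.64 against 13.96 to 14.51 for MDA. In APAP livers it was 11.20 to 11.73, against 12.82 to 13.74 in their controls. Hepatocyte markers were high on every array, with Alb and Ttr not called under ANIT (-0.34 and -0.53), and 2 of 12 fell with MDA (Cyp2e1 and Rbp4). Their summed level was 18.43 to 18.54 against 18.71 to 18.76 for MDA, and 18.71 to 18.74 against 18.78 to 18.79 for APAP. It was 17.72, 17.83 and 18.70 in ANIT livers and 17.79 to 18.77 in their controls. The values under 18 are those of the 3 arrays that stand apart. Without those arrays the median ANIT change was -0.04 over hepatocyte, 0.42 over cholangiocyte, 0.125 over macrophage and -0.27 over endothelial markers. With all arrays these medians were -0.29, 0.59, 0.30 and -0.38. The stellate median changed sign, to -0.09 from 0.13. Erythroid, platelet, neutrophil and lymphocyte medians were -0.62, -0.37, 0.12 and -0.14, beside -0.82, -0.19, 0.04 and -0.10 with all arrays. The part of any of these markers in the changes of Abcc3 and Abcc4 with ANIT, MDA and APAP was not tested.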

How the data were processed

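Liver RNA of 23 rats in 8 groups was hybridised singly to arrays. The authors had processed the scans by robust multichip averaging (RMA) in Array Studio, and the deposited values are log2 expression per probe set, with a median of 8.95 to 9.02 per sample. Of 31099 probe sets, 57 Affymetrix controls were left out. Platform annotation named 1 gene for 20826 probe sets, several for 436 and none for 9780; 20758 of the first were found by gene identifier in a rat name table (GRCr8), which was used for names only. Each gene was represented by its probe set with the highest mean.

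Only the groups compared entered each linear model (R 4.3.3, limma 3.58.1, empirical Bayes, two-sided, Benjamini-Hochberg over 31042 probe sets). Calls needed an adjusted p under 0.05 and a fold change over 1.5. The methods' t-test, whose variance setting is not given in the sources used here, was run with equal variances as an alternative. Where labels name no more than the animal, p-values measure the spread between these rats. The 3 corn oil samples at 5 ml/kg carry different leading animal numbers but the same trailing one, and were counted as 3 rats by the former.

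The members, 13 gene lists and 9 marker lists were chosen with earlier results of these data known. Named genes were the members; any gene of the ABCC, basolateral, canalicular, uptake and regulator lists; up to 4 called genes per other list with the largest changes; the first 2 and the called markers; and the 6 genes nearest each pump. Nqo1, Gclc and Aldh1a1 are also named outside these limits, after their values were seen. Scripts were tested on simulated data. Promoter letters come from RefSeq, which listed no window for Abcc3 in the table used here. Alternatives were all groups in 1 fit, a variance trend, added median centring or quantile normalization, leaving out dim probe sets (mean under 7.80), the methods' t-test and leaving out each array; leaving out the 3 arrays without a value above 15 was added after seeing the data.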

Additional observations from a re-analysis of the deposited data

Results flagged for a closer look

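Differences between compounds in their effect on a pump passed the test for 4 results. The Abcc4 change was smaller with ANIT than with APAP (difference of log2 changes -1.15, limma adjusted p = 0.0273) and smaller with MDA than with APAP (-0.83, adjusted p = 0.0273), in tests that span different in-life studies. Within 1 study APAP exceeded DCLF for Abcc3 (2.75, adjusted p = 0.000436) and for Abcc4 (1.95, adjusted p = 0.00333). Groups held 2 or 3 animals, too few for a test of single outlying animals.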

How the results depend on the processing

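All called increases of Abcc3 and Abcc4 over vehicle kept their direction under every alternative run, and lost their call only under the methods' t-test with adjusted p: Abcc3 with ANIT (2.70, adjusted p = 0.0948) and APAP (2.87, 0.0765), and Abcc4 with MDA (0.79, 0.12) and APAP (1.62, 0.261). That test called 222 probe sets for ANIT, 372 for MDA and 1 for APAP. With all 8 groups in 1 fit, the Abcc4 difference MDA minus APAP missed the threshold (-0.83, adjusted p = 0.0579), and 125 probe sets were called for APAP, 5 for DCLF and 58 for APAP minus DCLF. Leaving out dim probe sets gave 3 calls for DCLF and 35 for APAP minus DCLF, and a variance trend 4 and 36. Without the 3 arrays that stand apart, the Abcc3 difference ANIT minus MDA changed sign (-0.42); it was called under no setting. The cause was not tested.

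Leaving out 1 array at a time gave Abcc3 changes of 2.40 to 3.04 for ANIT, 2.62 to 2.80 for MDA and 2.78 to 2.94 for APAP, and Abcc4 changes of 0.66 to 0.92 for MDA and 1.54 to 1.72 for APAP, called in every run. Uncalled values that crossed 0 were Abcc3 with DCLF (-0.0444 to 0.23), corn oil against water (-0.0311 to 0.12), ANIT minus MDA (-0.28 to 0.36) and ANIT minus APAP (-0.47 to 0.17). Abcc4 differences from APAP were -1.37 to -1.03 for ANIT and -0.96 to -0.70 for MDA, each called in 4 of 12 runs. Abcc4 with DCLF ran from -0.59 to -0.05 and with ANIT from 0.25 to 0.60, called in 0 runs.

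No paired analysis was possible because no rat received both a compound and its vehicle, and numbers within a group merely name samples. With 1 probe set per gene, averaging probe sets gave no other value. All 23 samples had Abcc4 levels above the limit of 7.80 used for dim probe sets.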
